A study of Mus musculus with 4 samples.

Results

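The genes described here are 6 matrix metalloproteinases (Mmp8, Mmp9, Mmp12, Mmp13, Mmp14 and Mmp19) and 2 tissue inhibitors of metalloproteinases (Timp1 and Timp2), 8 of the 27998 genes of the deposited count matrices. They were taken by gene symbol. They were read in single cells of malignant pleural effusions, tumour-bearing fluid of the chest cavity, raised in C57BL/6 mice with LLC (Lewis lung carcinoma), a mouse tumour line. On day 11 the mice received PBS, 1 µg of LNP-cGAMP, 30 µg of an anti-PD-L1 antibody or both agents (the combination) into the pleural cavity. LNP-cGAMP is a lipid nanoparticle carrying cGAMP, the messenger that activates STING and through it the interferon response. The antibody blocks PD-L1, a ligand that restrains T cells. The effusion cells were taken on day 13, 48 h later, and red blood cells were lysed. Cells of 3 mice were pooled for each treatment, so each of the 4 groups is 1 library with no replicate. No test between treatments was possible, and every difference between them describes these libraries.

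Matrix metalloproteinases are zinc enzymes that cut proteins outside the cell, and most are made as inactive precursors. Mmp8 (neutrophil collagenase) and Mmp9 (gelatinase B) are stored in neutrophil granules; the first cuts fibrillar collagen and the second denatured and basement-membrane collagen. Mmp12 is the macrophage elastase, Mmp13 another collagenase, Mmp14 a membrane-anchored enzyme that activates other metalloproteinases, and Mmp19 a secreted enzyme found in myeloid and other cells. Timp1 and Timp2 bind the active enzymes and block them, and Timp2 together with Mmp14 also takes part in activating the precursor of Mmp2.

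In the GRCm38 annotation 3 of the members, Mmp13 (chr9:7272514-7283331), Mmp12 (chr9:7344381-7369499) and Mmp8 (chr9:7558456-7568485), lie on the plus strand in a run of 9 protein-coding metalloproteinase genes on chromosome 9. Mmp9 lies at chr2:164940780-164955850, Mmp19 at chr10:128790910-128800824 and Mmp14 at chr14:54431612-54445364, all on the plus strand. Timp2 lies on the minus strand at chr11:118301069-118355740. Timp1 lies on the plus strand at chrX:20870166-20874735, inside Syn1, which is read from the other strand. How the counting used strand is not given in the sources used here. The promoters of the 3 members that share the run are printed because the cells set these neighbours apart: Mmp8 was found in neutrophil-like cells, and the other two hardly at all. RefSeq gives 2 starts for Mmp12, and the windows before both are shown. Each is the 250 bases before a RefSeq start in GRCm38.p6, on the plus strand, and capitals mark the letters TGANTCA, the AP-1 motif, searched on both strands.

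Mmp8, chr9:7558179-7558428: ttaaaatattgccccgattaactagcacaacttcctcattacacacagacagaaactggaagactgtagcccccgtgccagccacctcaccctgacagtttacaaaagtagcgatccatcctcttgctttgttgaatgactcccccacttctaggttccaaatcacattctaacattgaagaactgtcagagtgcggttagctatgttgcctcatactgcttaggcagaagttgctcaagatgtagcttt
Mmp12, chr9:7344147-7344396: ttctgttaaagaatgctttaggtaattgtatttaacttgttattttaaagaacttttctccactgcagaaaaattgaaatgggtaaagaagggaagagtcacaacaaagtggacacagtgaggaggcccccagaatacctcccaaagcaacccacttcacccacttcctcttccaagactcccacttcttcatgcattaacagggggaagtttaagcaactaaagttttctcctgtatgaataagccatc
Mmp12, chr9:7347124-7347373: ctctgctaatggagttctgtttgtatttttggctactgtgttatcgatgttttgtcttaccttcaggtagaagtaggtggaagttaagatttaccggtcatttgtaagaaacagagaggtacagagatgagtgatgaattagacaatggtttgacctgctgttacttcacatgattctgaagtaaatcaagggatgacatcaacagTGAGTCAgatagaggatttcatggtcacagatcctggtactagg
Mmp13, chr9:7272264-7272513: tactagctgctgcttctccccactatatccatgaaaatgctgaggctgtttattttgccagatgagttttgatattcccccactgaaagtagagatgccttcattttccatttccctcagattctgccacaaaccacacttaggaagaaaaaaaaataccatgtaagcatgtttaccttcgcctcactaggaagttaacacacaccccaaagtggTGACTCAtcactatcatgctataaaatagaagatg

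The motif began 35 bases before the start of Mmp13 and 44 bases before the second start of Mmp12, which lies inside the annotated gene. These letters were not in the first window of Mmp12, which spans the annotated gene start, nor in that of Mmp8. Promoters were matched for 6 members, and Mmp13 and 1 of the 2 windows of Mmp12 held the motif; Mmp9 and Mmp19 were not matched. Of the 32851 promoters of this length, 2217 (6.75%) held the motif.

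The 4 libraries held between 68828158 and 88855120 UMIs (unique molecular identifiers, each standing for 1 captured RNA molecule), and between 2833 and 3841 cells of a library were kept, with medians of 16415 to 18736.5 UMIs per cell. A total of 34 barcodes were kept in at least 2 libraries. Cells were clustered without the 8 members, and clusters were named from marker genes, written here as "-like". Monocyte/macrophage-like cells, the phagocytes of the comparison, numbered 1580 in PBS and 2261 with LNP-cGAMP, then 1940 with anti-PD-L1 and 2411 in the combination. Neutrophil-like cells numbered 874, 1091, 925 and 588 in this order, which is kept wherever 4 values follow each other. Their depth differed widely, with median UMIs of 20540 to 34699.5 in monocyte/macrophage-like and 2093 to 2516 in neutrophil-like cells. A level is therefore given as CPM, counts per 1000000, the UMIs of the gene over the UMIs of all genes summed over the cells of a class in 1 library, with an exact 95% Poisson interval. These intervals cover counting error only, and none of them covers differences between mice. As these are tags from the 3' end, levels are compared between cells and libraries for 1 gene at a time. Fewer positive cells and less RNA per cell cannot be told apart in a summed level, so shares of cells are given for Mmp8 and Mmp9.

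Xist and Y-linked genes in each cell showed that the pools differed in the sexes of the mice. In monocyte/macrophage-like cells with a call, none was female-called in the PBS and LNP-cGAMP libraries, against 66.2% in the anti-PD-L1 and 78.4% in the combination library. Sex thus went with the antibody. Over a whole class they cannot be told apart when anti-PD-L1 or the combination is compared with PBS or LNP-cGAMP. In the combination library the calls went with the clusters. Of its 399 male-called monocyte/macrophage-like cells, 59.6% fell in cluster 5 and 36.1% in cluster 7, both led by Saa3, an acute-phase protein. Of its 1452 female-called cells, 0.62% and 0.689% did. A further 482 cells of this class and library had no call. That library thus held cells of at least 2 mice in different states, and the sex of a mouse, the individual mouse and its response to treatment cannot be told apart there. Male-called and female-called values are given beside the results that they touch.

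The question named for these genes was how Mmp8 and Mmp9 compare between neutrophils and phagocytes. Both stood higher in neutrophil-like than in monocyte/macrophage-like cells in 4 of 4 libraries. Mmp9 was at 2247 CPM in neutrophil-like against 43.7 in monocyte/macrophage-like cells in PBS, 1313 against 15.4 with LNP-cGAMP, 1221 against 19.97 with anti-PD-L1 and 1055 against 14.7 in the combination. The classes did not overlap across the libraries. The log2 ratio of (CPM + 10) averaged 5.47 ± 0.16 (SD, n = 4 libraries) for Mmp9, between 5.36 and 5.70. Mmp8 stood at 278 CPM in neutrophil-like against 8.88 in monocyte/macrophage-like cells in PBS, and at 402 against 17.6 in anti-PD-L1. It stood at 2167 against 206 in LNP-cGAMP and at 1208 against 76.1 in the combination. For Mmp8 the lowest neutrophil-like value, 278 in PBS, was above the highest monocyte/macrophage-like value, 206 in LNP-cGAMP. Its mean log2 ratio was 3.75 ± 0.28 (SD, n = 4), from 3.33 in LNP-cGAMP to 3.93 in PBS, so its margin was smallest where its level was highest. As plain ratios the Mmp8 margin ran from 10.5-fold (10.2 to 10.9) in LNP-cGAMP to 31.3-fold (27.7 to 35.3) in PBS. These SDs hold treatment differences as well as library error. A two-sided exact sign-flip permutation test over the 4 libraries gave p = 0.125 for Mmp8 and for Mmp9. This is the smallest that 4 libraries allow, so this design could not pass 0.05. All 8 members gave the same value, Mmp12 at a mean log2 ratio of -0.12 included, so nothing is concluded from this test. The classes differ in many genes: 29.7%, 22.5%, 27.0% and 22.6% of the genes compared stood at least 1.5-fold higher in neutrophil-like cells of the 4 libraries, and 44.4%, 50.8%, 49.7% and 53.9% at least 1.5-fold lower.

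Of the other members, Mmp19, Timp1 and Timp2 were at least 1.5-fold lower in neutrophil-like than in monocyte/macrophage-like cells in 4 of 4 libraries, with mean log2 ratios of -1.45, -1.17 and -1.97. Mmp12 had no UMI in neutrophil-like cells of any library, with upper 95% limits of 1.29 to 2.40 CPM. Mmp13 and Mmp14 had at most 1 UMI in neutrophil-like cells of a library.

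**Figure D1:**
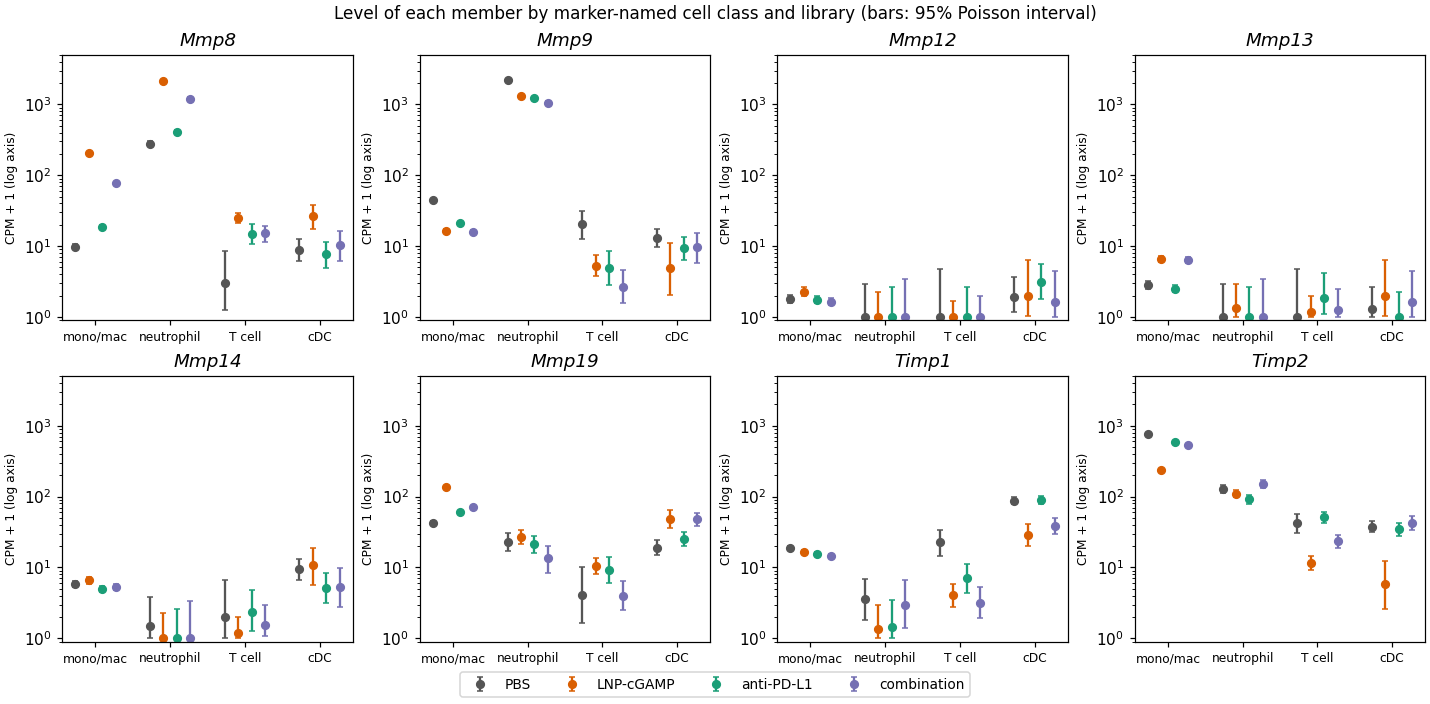
Level of each of the 8 genes, as CPM + 1 on a log axis, in the monocyte/macrophage-like (mono/mac), the neutrophil-like, the T cell-like and the conventional dendritic cell-like (cDC) cells of each library. Points are single libraries and bars are 95% Poisson intervals; Mmp9 in neutrophil-like cells lies between 1055 and 2247 CPM, above its other classes, and Mmp8 is highest in the LNP-cGAMP library in both large classes.

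Mmp8 was the member with the widest range between treatments. There were 509 Mmp8 UMIs in monocyte/macrophage-like cells of PBS and 10141 in those of LNP-cGAMP, or 8.88 CPM (8.12 to 9.68) and 206 CPM (202 to 210). The anti-PD-L1 library stood at 17.6 CPM (16.6 to 18.6) and the combination at 76.1 (73.9 to 78.3), so the 4 intervals did not overlap. Per cell these were 0.322, 4.49, 0.608 and 1.97 UMIs. Against PBS Mmp8 was 23.2-fold higher (21.2 to 25.4) in LNP-cGAMP and 8.57-fold higher (7.82 to 9.41) in the combination. Anti-PD-L1 against PBS gave 1.98-fold in plain CPM but a log2 ratio of 0.55 with the 10 CPM added, under the 1.5-fold limit used here (0.585 on the log2 scale). In neutrophil-like cells the order of the libraries was the same, at 278, 2167, 402 and 1208 CPM. There LNP-cGAMP was 7.81-fold (7.15 to 8.54) and the combination 4.35-fold (3.96 to 4.8) above PBS, and anti-PD-L1 1.45-fold.

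The share of cells with an Mmp8 UMI also differed. In neutrophil-like cells 24.5%, 58.9%, 30.5% and 59.4% held one, and after thinning each cell to 1000 UMIs 16.96%, 47.1%, 18.8% and 43.4% did. Among monocyte/macrophage-like cells the shares were 9.62%, 53.1%, 18.04% and 28.5%, and 1.65%, 15.1%, 3.25% and 7.05% after thinning. T cell-like cells, which are not known to make Mmp8, held a UMI in 1.19% of cells in PBS and 15.8% in LNP-cGAMP, at median depths of 5835 and 16036 UMIs. After thinning, 3 of 241 T cell-like cells of the LNP-cGAMP library did, against 342 of 2258 monocyte/macrophage-like cells. In the combination 47 of the 52 Mmp8 UMIs of T cell-like cells came from 1 cell.

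**Figure D2:**
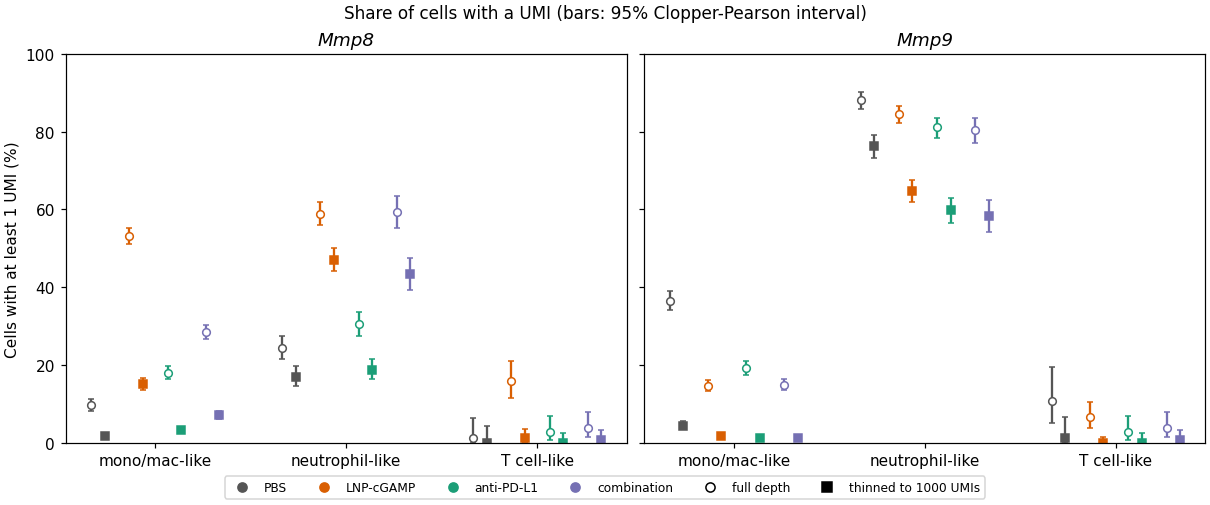
Percentage of cells with at least 1 UMI of Mmp8 (left) or Mmp9 (right) in the monocyte/macrophage-like, the neutrophil-like and the T cell-like cells of each library, at full depth (open circles) and after thinning to 1000 UMIs (squares), with 95% Clopper-Pearson intervals. For Mmp8 the LNP-cGAMP and combination libraries stand highest in both large classes, and for Mmp9 the PBS library does.

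Neutrophil transcripts were also found in monocyte/macrophage-like cells, so their levels are given beside Mmp8. The 14 neutrophil markers summed to 625, 1471, 851 and 843 CPM in these cells, with 0 of 14 at 0, against 140355 to 213082 CPM in neutrophil-like cells. For each 1000 UMIs of the neutrophil calgranulins S100a8 and S100a9, monocyte/macrophage-like cells held 27.5, 365, 36.2 and 223 Mmp8 UMIs. Neutrophil-like cells held 2.25, 14.6, 2.61 and 6.41, and near-empty barcodes, which hold free RNA, 13.0, 28.0, 8.57 and 13.3. The monocyte/macrophage-like proportion was above both others in 4 of 4 libraries, by the widest margins in LNP-cGAMP and the combination. Monocyte/macrophage-like cells with an Mmp8 UMI also held more S100a8 and S100a9 (1340, 805, 2125 and 552 CPM) than those without (275, 275, 308 and 272 CPM). In PBS and anti-PD-L1 the monocyte cluster 4, described below, held 83.1% and 93.0% of the class's Mmp8 UMIs. There the contrast is thus also one between clusters. The part of mixed droplets in the Mmp8 levels was not tested.

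The monocyte/macrophage-like class held 7 large clusters, and Mmp8 was spread unevenly over them. In PBS and anti-PD-L1, cluster 4, led by Chil3, Vcan and Ccr2 (monocyte genes), held 83.1% and 93.0% of the class's Mmp8 UMIs, at 93.2 and 108 CPM. In LNP-cGAMP, cluster 5 (Saa3, Hp) held 57.9% of them in 29.9% of the cells, at 470 CPM. In the combination, cluster 5 held 49.9%, cluster 7 (Saa3, Clec10a) 21.3% and cluster 4 14.2%, at 426, 214 and 130 CPM. The macrophage clusters 1 (Lyve1, Fcna) and 3 (Cd163, Ccl24) stood between 0.13 and 4.53 CPM in every library where they held at least 50 cells. Clusters 2 (Ccl12, Ms4a7), 5, 7 and 11 (Fabp5, Ccl8) held 2073 cells in LNP-cGAMP and 1418 in the combination, against 20 in PBS and 37 in anti-PD-L1, and cluster 1 held none in LNP-cGAMP. The class difference thus goes with which clusters were present. Within cluster 4 alone Mmp8 was at 235 CPM with LNP-cGAMP and 93.2 with PBS, 2.52-fold higher (2.24 to 2.84), and 1.39-fold higher (1.23 to 1.58) in the combination than in PBS.

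Mmp8 was 2.71-fold lower (2.62 to 2.80) in the combination than in LNP-cGAMP over all monocyte/macrophage-like cells, but this direction was not held by every subset. It was lower in clusters 2 (32.9 against 90.8 CPM), 4 (130 against 235), 5 (426 against 470) and 11 (20.1 against 36.8), and higher in cluster 7 (214 against 160). Male-called cells of the combination stood at 310 CPM (298 to 322), above the 203 CPM of male-called cells in LNP-cGAMP, while its female-called cells stood at 24.4 CPM (22.9 to 25.9). The 482 cells of the combination with no call stood at 96.0 CPM. Within that 1 library the male-called and female-called cells thus differed by more than the combination and LNP-cGAMP libraries did. In the anti-PD-L1 library the male-called cells (14.4 CPM) and female-called cells (17.6 CPM) lay close together. Female-called cells of the combination against those of anti-PD-L1 gave a log2 ratio of 0.32, against 1.64 for the whole class.

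**Figure D3:**
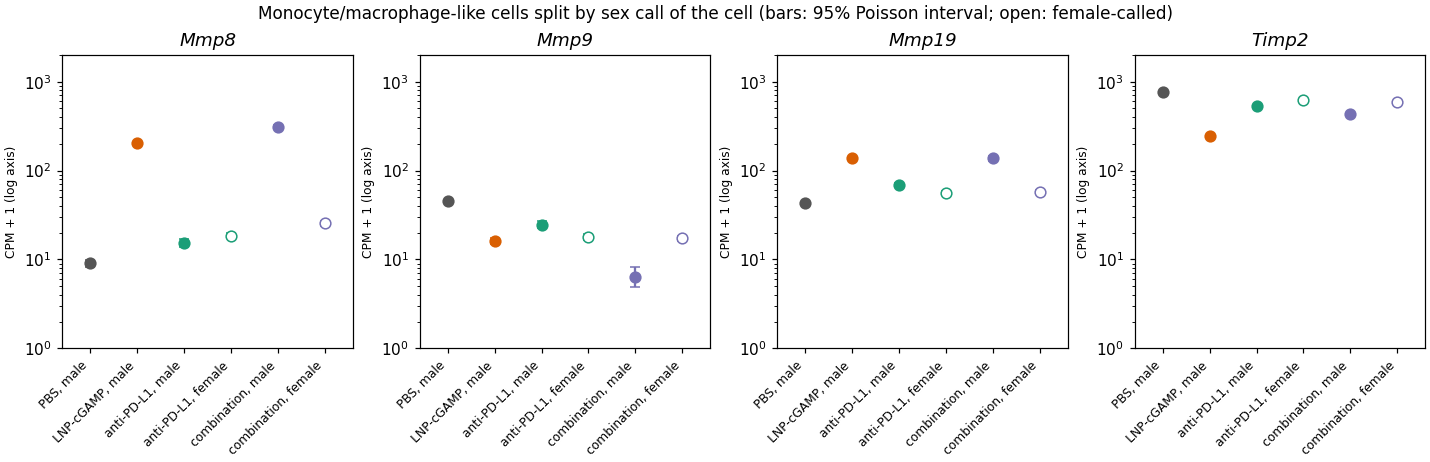
Levels of Mmp8, Mmp9, Mmp19 and Timp2 (CPM + 1, log axis) in monocyte/macrophage-like cells by library and by the sex call of the cell, with 95% Poisson intervals; female-called cells are open circles, and this class had none in the PBS and LNP-cGAMP pools. Male-called and female-called cells of the combination lie at 310 and 24.4 CPM for Mmp8, and those of anti-PD-L1 at 14.4 and 17.6 CPM.

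Neutrophil-like cells fell mainly into 3 clusters. Cluster 6 was led by Retnlg and Ngp, cluster 0 by Stfa2l1 and S100a9, and cluster 10 by Il1r2 and Prnp. In LNP-cGAMP Mmp8 stood at 3185 CPM in cluster 6 and 3359 in cluster 10, against 616 in cluster 0. In PBS clusters 6 and 0 were near each other (331 and 258 CPM), as they were in anti-PD-L1 (374 and 426) and the combination (1335 and 1080). Cluster 10 held 287 cells in LNP-cGAMP and at most 24 in each other library. The class was 1.79-fold lower (1.70 to 1.89) for Mmp8 in the combination than in LNP-cGAMP, but cluster 0 went the other way, at a log2 ratio of 0.80. In anti-PD-L1 the 80 male-called neutrophil-like cells stood at 176 CPM (121 to 247) and the 122 female-called at 527. Male-called cells of PBS stood at 249 (210 to 294), so among male-called cells anti-PD-L1 was not above PBS. In the combination 7 cells were male-called, too few for a level.

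Over all cells of each large class, Mmp9 stood lower than PBS in each treated library and Mmp8 higher. In neutrophil-like cells both stood lower in the combination than in LNP-cGAMP. In these cells Mmp9 was highest in PBS, at 2247 CPM (2181 to 2314). LNP-cGAMP stood at 1313, anti-PD-L1 at 1221 and the combination at 1055, lower by 1.71-fold, 1.84-fold and 2.13-fold. The log2 ratios were -0.77, -0.87 and -1.08, beside medians of -0.15, -0.15 and -0.26 over all genes compared in this class, a shift to which the ratios of single genes are relative. With TMM scaling, which centres the libraries on most genes, LNP-cGAMP against PBS gave -0.51, not past 1.5-fold. Most neutrophil-like cells held an Mmp9 UMI, from 80.4% in the combination to 88.2% in PBS, and after thinning from 58.3% to 76.2%. The PBS library stood above the other 3, which differed by up to 1.24-fold. In cluster 0 the levels were 2635, 1536, 1491 and 1118 CPM and in cluster 6 they were 1260, 1090, 824 and 903, so the margin of PBS over LNP-cGAMP was smaller in cluster 6. Neutrophil-like cells of PBS also held more red cell transcripts, at 1594 CPM summed over that marker list against 2.0 to 8.4 CPM in the other libraries, and the part of this in the Mmp9 difference was not tested.

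Mmp9 in monocyte/macrophage-like cells was at 43.7, 15.4, 19.97 and 14.7 CPM in the same order. It was lower than PBS by 2.84-fold (2.61 to 3.08) with LNP-cGAMP, 2.19-fold (2.05 to 2.34) with anti-PD-L1 and 2.98-fold (2.76 to 3.22) with both. Cluster 3 went from 54.8 CPM in PBS to 18.1 with anti-PD-L1 and 13.8 with both agents, cluster 1 from 34.7 to 22.8 and 14.2, and cluster 4 from 35.5 to 11.2 and 7.53. Within these clusters PBS stood highest each time. Male-called and female-called cells stood at 23.6 and 16.9 CPM in the anti-PD-L1 library and at 5.34 and 16.2 in the combination. Neutrophil transcripts were found beside it here too. Monocyte/macrophage-like cells with an Mmp9 UMI held more S100a8 and S100a9 (411, 1837, 817 and 793 CPM) than those without (256, 295, 377 and 235 CPM). For each UMI of the receptors Csf3r and Cxcr2, this class held 3.49, 0.31, 1.35 and 0.58 Mmp9 UMIs. Neutrophil-like cells held 0.71, 0.41, 0.43 and 0.35, and near-empty barcodes 0.70, 0.41, 0.45 and 0.52. In LNP-cGAMP the class thus lay below both others, and in the other 3 libraries above both. The receptors were not in like proportion. In LNP-cGAMP this class held 2092 Csf3r and 348 Cxcr2 UMIs, neutrophil-like cells 4564 and 4666, and near-empty barcodes 308 and 189. The LNP-cGAMP value thus rests mainly on Csf3r. For each 1000 UMIs of S100a8 and S100a9 it lay above both in 4 of 4 libraries. The part of mixed droplets in the Mmp9 levels was not tested. Mmp9 did not reach 50 CPM in this class in any library, and a pseudocount of 50 CPM left none of its ratios past 1.5-fold.

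Most Mmp19 UMIs, 87.9% to 95.1% in each library, were in monocyte/macrophage-like cells. This class made up 55.8% to 68.5% of the cells, at far greater depth than neutrophil-like cells, so the share also follows class size. The fibroblast-like cells, only 8, 7, 5 and 17 per library, held 1.83%, 0.62%, 1.56% and 1.25%. In monocyte/macrophage-like cells Mmp19 stood at 42.1 CPM in PBS, 59.5 with anti-PD-L1, 71.1 with both agents and 137 with LNP-cGAMP. LNP-cGAMP was 3.25-fold above PBS (3.11 to 3.41), with no overlap of the 4 intervals. The high values came from the Saa3-led clusters, at 205 CPM in cluster 5 and 219 in cluster 7 in LNP-cGAMP, and 128 and 137 in the combination. Within cluster 4 the libraries lay between 77.8 and 86.3 CPM, and LNP-cGAMP against PBS there gave 1.07-fold (0.91 to 1.25). In the combination, male-called cells stood at 136 CPM and female-called cells at 57.0, against 138 in male-called cells of LNP-cGAMP. Conventional dendritic cell-like cells showed 47.5 and 46.8 CPM in LNP-cGAMP and the combination, against 18.1 in PBS and 24.4 in anti-PD-L1.

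Timp2 was the inhibitor found in most phagocytes, with 82.7% to 93.3% of its UMIs in monocyte/macrophage-like cells. This share too follows the size and depth of the class. The fibroblast-like cells, only 8, 7, 5 and 17 per library, held 1.20%, 8.69%, 0.817% and 4.63% of its UMIs. In monocyte/macrophage-like cells its order was the reverse of that of Mmp19. It stood at 752 CPM in PBS, 589 with anti-PD-L1, 527 with both agents and 239 with LNP-cGAMP. LNP-cGAMP was 3.15-fold below PBS (3.08 to 3.21). Cluster 1 (Lyve1, Fcna) held 76.7%, 80.1% and 60.6% of the class's Timp2 UMIs in PBS, anti-PD-L1 and the combination, at 1079, 917 and 1000 CPM, and had no cell in LNP-cGAMP. The clusters differed more than the libraries did within a cluster. Cluster 4 lay at 22.3 to 34.6 CPM, and cluster 2 at 168 and 164 CPM in LNP-cGAMP and the combination. Cluster 11 lay at 691 and 697 CPM, cluster 5 at 73.2 and 172, and cluster 7 at 441 and 754. Timp2 was 2.20-fold higher (2.16 to 2.25) in the combination than in LNP-cGAMP over the class, and cluster 2 alone gave a log2 ratio of -0.03. Male-called and female-called cells of the combination stood at 434 and 584 CPM, and those with no call at 281.

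**Figure D4:**
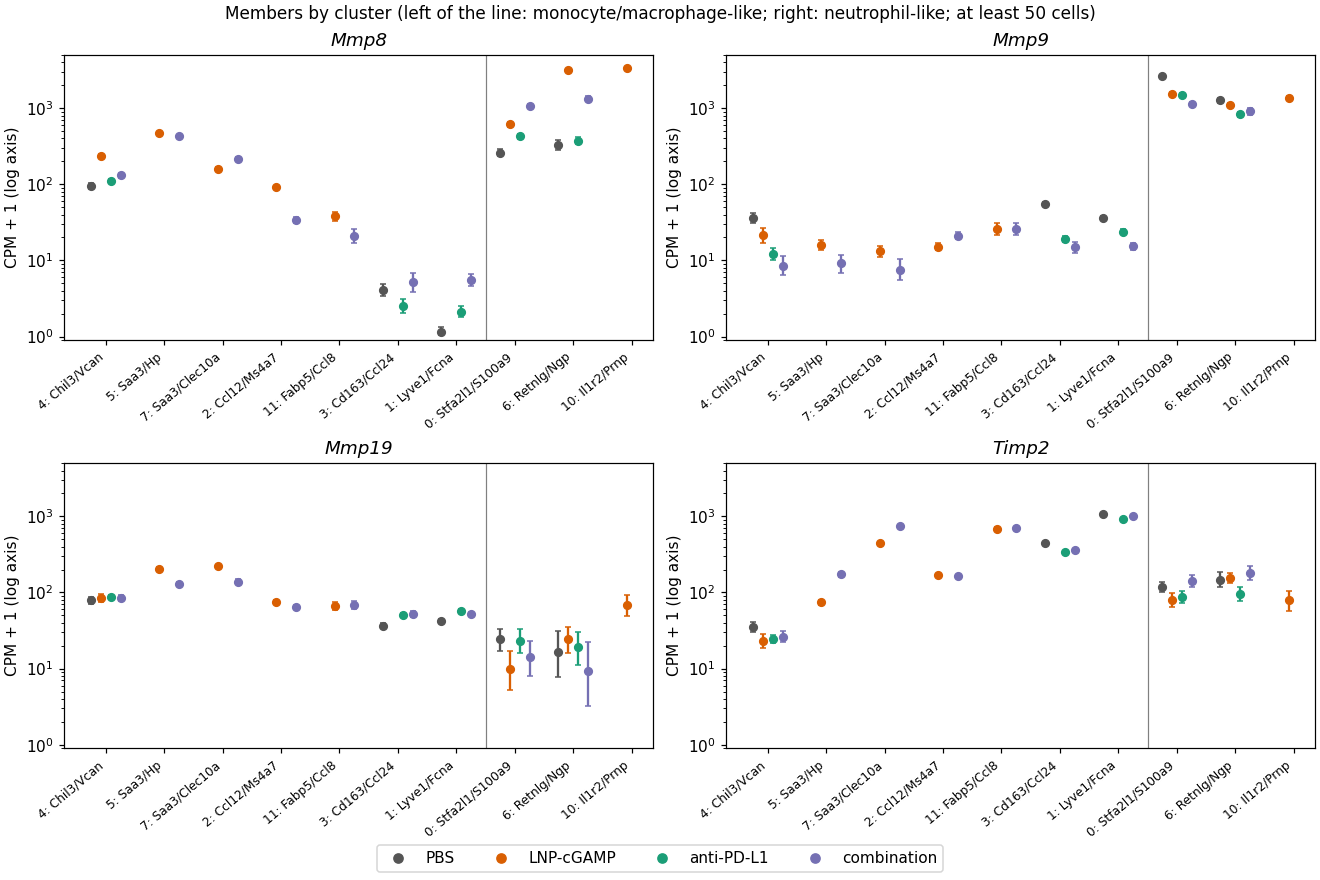
Levels of Mmp8, Mmp9, Mmp19 and Timp2 (CPM + 1, log axis) in each monocyte/macrophage-like cluster (left of the line) and neutrophil-like cluster (right), for libraries with at least 50 cells in the cluster, with 95% Poisson intervals. Mmp8 runs from 0.13 CPM in cluster 1 to 470 CPM in cluster 5 among phagocytes, and Timp2 runs from 22.3 CPM in cluster 4 to 1079 CPM in cluster 1.

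Timp1 was divided mainly between phagocytes and fibroblast-like cells. Monocyte/macrophage-like cells held 45.4%, 52.8%, 51.4% and 32.9% of all its UMIs. The fibroblast-like cells, only 8, 7, 5 and 17 per library, held 24.5%, 42.7%, 24.2% and 55.6%. These cells held 69.1, 89.4, 92.2 and 82.4 Timp1 UMIs each on average. In conventional dendritic cell-like cells Timp1 stood at 86.7 CPM (77.0 to 97.3) with PBS and 88.5 with anti-PD-L1, against 28.1 (18.8 to 40.4) in LNP-cGAMP and 37.6 (28.7 to 48.3) in the combination. In this class both values without LNP-cGAMP lay above both with it, but how many other genes split this way was not counted. Monocyte/macrophage-like cells held 13.3 to 17.8 CPM in all 4 libraries and did not pass 1.5-fold in any comparison. Cluster 4 showed more, at 71.2 CPM in PBS and 39.6, 41.1 and 43.8 in the treated libraries. Timp1 is X-linked and the pools differ in sex; male-called and female-called monocyte/macrophage-like cells lay at 17.1 and 13.0 CPM in anti-PD-L1 and at 11.1 and 12.6 in the combination.

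Mmp14 was found mainly outside the immune cells in PBS, where 37 LLC tumour-like cells held 54.8% of its 766 UMIs, 11.4 per cell. In the other libraries these cells held 6.33% (LNP-cGAMP, 18 cells), 24.2% (anti-PD-L1, 33 cells) and 23.5% (combination, 24 cells). Median UMIs of the LLC tumour-like cells were 1260.5 in the LNP-cGAMP library and 48620 to 71407 in the others, so their counts are not comparable. Every fibroblast-like cell of LNP-cGAMP and anti-PD-L1 held Mmp14. Monocyte/macrophage-like cells stood at 3.98 to 5.55 CPM, and cluster 4 at 18.1 CPM in PBS and 7.81 to 11.96 in the treated libraries.

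Mmp13 and Mmp12 were rare. Mmp13 in monocyte/macrophage-like cells gave 104, 276, 102 and 336 UMIs, or 1.81, 5.61, 1.52 and 5.39 CPM. LNP-cGAMP and the combination against PBS gave log2 ratios of 0.40 and 0.38 with the 10 CPM added, not past 1.5-fold. Of the 336 UMIs in the combination 108 came from 1 cell, and without that cell the level was 3.66 CPM. The 482 cells of the combination with no sex call held 164 of the 336, at 19.1 CPM. Male-called cells of the combination stood at 1.21 CPM (0.58 to 2.23) and its female-called cells at 3.50, against 1.67 in male-called cells of PBS and 5.76 in those of LNP-cGAMP. In the combination Mmp13 was also lower than in PBS in cluster 1 (1.01 against 1.56 CPM) and cluster 3 (1.13 against 1.43). Cluster 2 held it at 8.57 and 9.86 CPM in LNP-cGAMP and the combination. Mmp12 gave 45, 62, 50 and 40 UMIs in this class, of which 30 in PBS and 23 in the combination came from 1 cell each. A further 58.1%, 34.7% and 54.4% of all its UMIs with PBS, anti-PD-L1 and both agents were in cluster 13, a cluster left unnamed (Alox15, Prg4) with 34, 24, 99 and 123 cells. In anti-PD-L1 21 of the 35 Mmp12 UMIs of that cluster came from 1 cell. Of the 50 UMIs of monocyte/macrophage-like cells there, 34 were in male-called and 6 in female-called cells. These levels rest on a few cells and no order of treatments is read from Mmp12.

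Counted over all 8 members, 4 stood past 1.5-fold in monocyte/macrophage-like cells for LNP-cGAMP against PBS, Mmp8 and Mmp19 higher and Mmp9 and Timp2 lower, where 19.8% of the 3280 genes compared were past it in either direction. For anti-PD-L1 against PBS it was 1 member (Mmp9 lower) beside 2.53% of genes, and for the combination against PBS 3 members (Mmp8 and Mmp19 higher, Mmp9 lower) beside 6.22%. The combination against LNP-cGAMP gave 3 members (Timp2 higher, Mmp8 and Mmp19 lower) beside 6.22%, and against anti-PD-L1 1 member (Mmp8 higher) beside 3.08%. In clusters 1, 3 and 4 taken alone, and in female-called cells, 0 members were past 1.5-fold for the combination against anti-PD-L1. No share of all genes is given for these subsets, so nothing is concluded from these counts.

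In neutrophil-like cells 2 of the 8 members were past 1.5-fold for LNP-cGAMP against PBS (Mmp8 higher, Mmp9 lower, the latter not past it with TMM scaling), beside 19.5% of 2650 genes, and the same 2 for the combination against PBS, beside 22.2%. Anti-PD-L1 against PBS gave 1 member (Mmp9 lower) beside 13.1%. The combination against LNP-cGAMP gave 2 lower (Mmp8, and Mmp19 on 19 UMIs against 75) beside 6.87%, and against anti-PD-L1 2 higher (Mmp8 and Timp2) beside 7.09%. The log2 ratio of Timp2 there was 0.68, but 0.51 with a pseudocount of 50 CPM and 0.26 in female-called cells (116 against 95.3 CPM), neither past 1.5-fold. A gene entered these shares when the 4 libraries together held 20 of its UMIs or more and 1 of them reached 50 CPM. The members that met this were Mmp8, Mmp19 and Timp2 in monocyte/macrophage-like and Mmp8, Mmp9 and Timp2 in neutrophil-like cells, 3 of 8 in each, so the members counted as past 1.5-fold include some that did not. The comparisons with PBS share the PBS library, and those of the combination share the combination library.

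**Figure D5:**
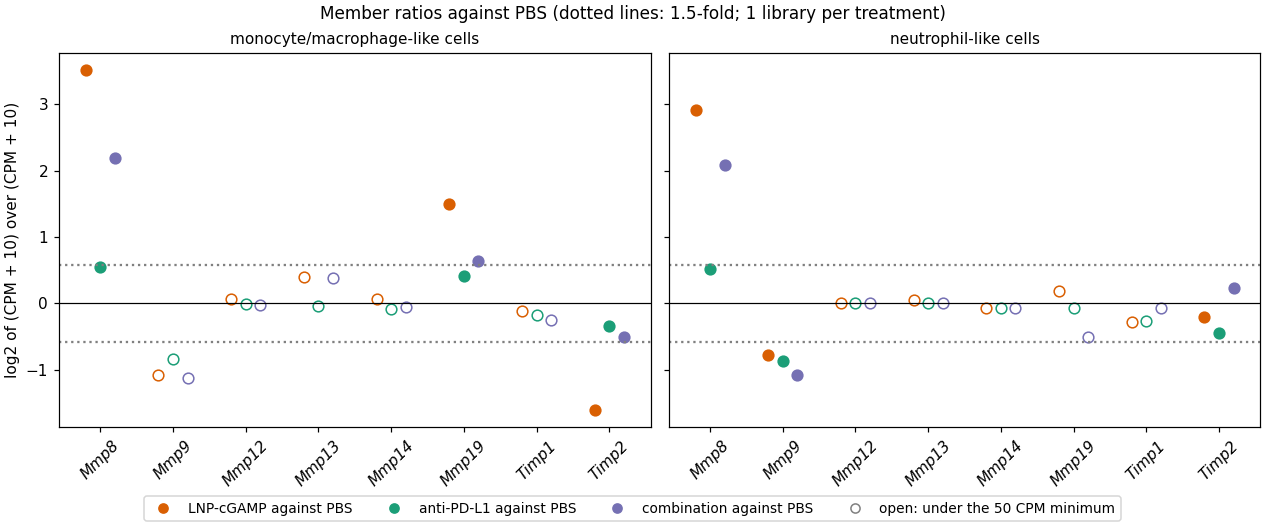
Log2 ratio of (CPM + 10) for each member in LNP-cGAMP, anti-PD-L1 and the combination against PBS, in monocyte/macrophage-like (left) and neutrophil-like (right) cells. Filled points met the 50 CPM minimum, dotted lines mark 1.5-fold, and Mmp8 stands at 3.52 and 2.92 for LNP-cGAMP in these classes.

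Genes that work with the members were read from fixed lists. None of the 17 other metalloproteinases and none of the 6 other inhibitors met the minimum in either class. In monocyte/macrophage-like cells, for LNP-cGAMP against PBS, the activators and the plasminogen system had 3 of 12 genes above the minimum, 0 higher and 1 lower: Prtn3, a neutrophil serine protease, at 107 against 208 CPM. Of the membrane sheddases 5 of 10 met it, with Adam8 higher (402 against 231) and Adam15 lower (137 against 294). Partners and inducers had 2 higher and 1 lower of 8, led by Spp1, the matrix protein osteopontin, at 964 against 150 CPM, with Cd63 lowest (293 against 459). The other higher gene, Lcn2 (56.1 against 15.7), reached the minimum only in LNP-cGAMP. The matrix substrates had 4 of 12 above the minimum, with Spp1 higher and fibronectin, Fn1, lower at 69.1 against 541 CPM. Over all genes compared in this class, 19.8% were past 1.5-fold for LNP-cGAMP against PBS. Each of these lists had only 3 to 8 genes above the minimum, so their counts are small.

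The fixed list of neutrophil granule genes, the class to which Mmp8 and Mmp9 belong, had 11 of 14 above the minimum in neutrophil-like cells. The list also holds Ltb4r1, a receptor gene. Its genes Lyz2, Prtn3 and Cybb stood higher in monocyte/macrophage-like than in neutrophil-like cells in every library, Lyz2 at 8449 against 1187 CPM in PBS. For LNP-cGAMP against PBS 7 of the 11 were higher and 2 lower, beside 19.5% of all genes compared past 1.5-fold in either direction. Ngp at 372 against 13.2 CPM had the highest ratio and Prtn3 the lowest. For anti-PD-L1 it was 5 higher and 3 lower beside 13.1%, and for the combination 4 higher and 3 lower beside 22.2%. Ngp was again the highest (911 and 89.95 CPM) and Chil3 the lowest ratio in both. The order of the libraries for Ngp thus differed from that for Mmp8, which was lower in anti-PD-L1 than in the combination. Ngp, Camp, Ltf and Cybb stood at 13.2, 1.52, 4.57 and 40.7 CPM in PBS and met the minimum only through treated libraries. Prtn3 met it only through PBS, at 80.3 CPM. Calls of these genes against PBS thus follow in part from the minimum. Of the same list 7 of 14 met the minimum in monocyte/macrophage-like cells. There LNP-cGAMP gave 4 higher, Ltb4r1 among them, and 2 lower than PBS, beside 19.8% of all genes compared. They ran from Retnlg (50.1 against 6.54 CPM) to Lyz2 (2192 against 8449 CPM). Retnlg and Lcn2 (56.1 against 15.7 CPM) reached the minimum only in LNP-cGAMP, so their calls as higher follow in part from it.

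Across 17 combinations of class and library, the genes whose log2(CPM + 10) was most like that of Mmp8 among 4868 genes were Slc40a1, Adipor1 and Ptp4a1, each at a Pearson correlation of 0.96. For Mmp9 they were Igf1r, Il17ra and Hcar2, each at 0.99, for Mmp19 Cept1, Creg1 (both 0.97) and Itm2b (0.96), and for Timp2 Padi4, Lbp (both 0.95) and Zswim6 (0.92). The correlation between Mmp8 and Mmp9 was 0.85. The 17 points share libraries and fall into a few classes, so these values describe the contrast between classes above all.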

How the data were processed

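The authors deposited counts, that is UMIs of each gene in each barcode as whole numbers, near-empty droplets included. Per the file headers they come from Cell Ranger 3.0.2, and per the submitters' processing notes from the mm10 build. The labels give the kit version as both v2 and v3. Droplets were kept above the low point of the UMI density of each library (923 to 1109 UMIs), with at least 200 genes and at most 10% mitochondrial UMIs; doublets were not removed. Cells were clustered with scanpy 1.11.5 (2000 variable genes, 30 components, resolution 1) without the 8 members. Cluster 13 stayed unnamed because its best marker list scored too low (0.478). Cluster 15 stayed unnamed because another list had more of its 10 leading genes (2 against 1). UMIs were summed per class and library; log2 ratios use CPM + 10, and folds are plain ratios with exact conditional binomial intervals. With 1 library per group no p-value is given between treatments; the exact sign-flip test of the classes within libraries was added after the data were seen. A member is counted at 1.5-fold, and the ratio code was tested on simulated data. Genes named beside the members are the highest and lowest ratio of each fixed list. The rule for likeness took the 3 highest correlations. Those of Timp1 are not reported here. Members and lists were chosen with earlier results of these data known. A UMI removes PCR copies, and intervals cover counting error only. edgeR 4.0.16 gave the TMM factors of an alternative scaling. Promoters come from RefSeq, and protein sequences were not used here.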

Additional observations from a re-analysis of the deposited data

How the results depend on the processing

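No paired analysis was possible because each group is 1 library, as far as treatments are compared; the classes were paired within libraries, and depth and the single pool per treatment limit every value. Mmp8 and Mmp9 stayed higher in neutrophil-like than in monocyte/macrophage-like cells under every alternative run. The mean log2 ratio was 4.15 (Mmp8) and 5.98 (Mmp9) with a pseudocount of 1, 2.91 and 4.32 with 50, and 4.29 and 5.99 with TMM scaling. Mmp8 gave 2.97 with each cell weighted equally, 3.00 thinned to 1000 UMIs and 3.42 in male-called cells, and Mmp9 gave 5.66 with background RNA subtracted. Leaving out each library in turn gave 3.69 to 3.88 for Mmp8 and 5.40 to 5.51 for Mmp9. Over 16 settings other than single clusters, 21 member ratios past 1.5-fold gave 303 alternative values, of which 290 stayed past it in the same direction, 12 did not pass it and 1 passed it the other way. The settings without shared barcodes, without the highest cell, without a library, with cluster 13 and in female-called cells were added after the data were seen.

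The number of members past 1.5-fold moved as follows. No share of all genes is given beside these counts, so they describe the members only and are not set against other genes. In monocyte/macrophage-like cells anti-PD-L1 against PBS gave 2 (pseudocount 1, cells weighted equally, background subtracted, cluster 4), 3 (thinned) and 0 (pseudocount 50, cluster 1). The combination against PBS gave 1 (pseudocount 50, cluster 1), and against LNP-cGAMP 1 (clusters 2 and 11). Against anti-PD-L1 it gave 2 (pseudocount 1), 3 (male-called) and 0 (female-called, clusters 1, 3 and 4). In neutrophil-like cells LNP-cGAMP against PBS gave 4 (pseudocount 1) and 1 (TMM, cluster 6). Anti-PD-L1 against PBS gave 3 (pseudocount 1), 2 (TMM, thinned, marker scores, cluster 0) and 4 (male-called). The combination against PBS gave 4 (pseudocount 1, marker scores, background subtracted) and 1 (cluster 6), against LNP-cGAMP 1 (pseudocount 50, cells weighted equally), and against anti-PD-L1 4 (pseudocount 1) and 1 (pseudocount 50).

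Directions turned in the combination against LNP-cGAMP. In monocyte/macrophage-like cells the log2 ratio of Mmp8 was 0.59 in male-called cells and 0.40 in cluster 7, that of Timp2 -0.032 in cluster 2, and that of Mmp19 0.0018 in cluster 4 and 0.052 in cluster 11. In neutrophil-like cluster 0 it was 0.80 for Mmp8 and 0.30 for Mmp19. The cause was not tested.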

Other observations

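Mmp27, the neighbour of Mmp8 on the same strand at chr9:7571396-7581885, begins 2910 bases after the end of Mmp8 and was picked after its values were seen. In monocyte/macrophage-like cells it gave 25 UMIs with PBS, 613 with LNP-cGAMP, 23 with anti-PD-L1 and 366 with both agents, or 0.436, 12.5, 0.343 and 5.87 CPM, the order of libraries being nearly that of Mmp8. In neutrophil-like cells, where Mmp8 was highest, it gave at most 10 UMIs in a library. Cluster 10, with 1950 Mmp8 UMIs in LNP-cGAMP, held 4 of Mmp27, while cluster 7 held 241 beside 1607 of Mmp8. In unnamed cluster 13 of the combination Mmp27 stood at 47.7 CPM, with 199 UMIs beside 117 of Mmp8. The number of Mmp27 UMIs for each 100 of Mmp8 thus ran from 0.205 to 170 over these clusters, which were picked as examples. Over all clusters with at least 50 cells in a library it ran wider. It was 0 in cluster 6 of LNP-cGAMP, beside 3550 Mmp8 UMIs, and 400 in cluster 1 of PBS, beside only 4. Whether reads of 1 gene were counted for the other was not tested.

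The share of Mmp8 RNA carried by phagocytes differed between libraries although neutrophil-like cells had the higher level in all 4. Monocyte/macrophage-like cells, with more RNA per cell, held 46.8% of all Mmp8 UMIs with PBS, 61.3% with LNP-cGAMP, 54.5% with anti-PD-L1 and 69.7% with both agents. Neutrophil-like cells held 50.2%, 37.5%, 42.0% and 27.3%. For Mmp9 neutrophil-like cells held 62.7%, 82.0%, 64.9% and 61.9%.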
